A study of Arabidopsis thaliana with 12 samples.

Results

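Transcript levels in the shoots of Arabidopsis thaliana seedlings were compared between 6am, the end of the night and the hour at which the lights came on, and 12am, 2 h into the dark. Both groups were the aerial part of wild-type seedlings of the Columbia ecotype, 10 days old, grown on agar plates with Murashige and Skoog salts and sucrose in cycles of 16 h light and 8 h dark. The compared samples were 3 arrays of 6am and 3 arrays of 12am, out of 12 arrays at 4 harvest times 6 h apart. Total RNA was primed with oligo(dT), labelled with biotin and hybridised to 1-colour Affymetrix arrays, on which a probe set is the group of short oligonucleotides that reports 1 transcript. Compared were the 14185 probe sets, out of 22746 that are not controls, whose log2 level was 4 or more on 3 or more arrays. Of these, 7718 named 1 gene, and 1123 of those carried a symbol other than a locus code. Nothing in the labels tells whether the replicates are separate cultures, and the p-values therefore cover the spread among these samples alone, part of which may be technical. The overexpressor of CCA1 that the series also describes was not analysed here.

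Plants store part of the carbon fixed by day as starch in the chloroplast and break it down through the night, when no light is available for photosynthesis. A circadian clock, built from genes that repress each other in turn, sets transcripts ahead of dawn and dusk, and clock proteins of the morning repress genes that are high in the evening. Light-signalling proteins such as the phytochromes, which sense red and far-red light, and the HY5 family of transcription factors act on many of the same genes. Cold-regulated genes, genes of cell wall loosening and genes of nutrient uptake are among those known to follow the time of day in leaves.

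Replicate 1 stood apart from replicates 2 and 3 at both times. Over the tested probe sets the Pearson correlation was 0.997 between replicates 2 and 3 of 6am and 0.967 between either of them and replicate 1. At 12am it was 0.993 between replicates 2 and 3 and 0.973 and 0.970 with replicate 1. Replicate 1 lay at least 2 log2 units from the mean of the other 2 for 74 probe sets at 6am and for 125 at 12am, where it was the lower in 111. The median level of 67 plastid-encoded transcripts was 9.14, 11.29 and 11.41 log2 on the 6am arrays, against 9.89, 11.22 and 11.16 log2 on the 12am arrays. This plastid median was 10.12, 10.94 and 10.92 log2 at 12pm and 9.26, 11.01 and 10.89 log2 at 6pm. Replicate 1 was thus the lowest in it at all 4 times. How fully oligo(dT) priming captures plastid-encoded transcripts was not tested, so this median describes the arrays and not plastid transcript abundance. The gap between the 3' and 5' control probe sets of GAPDH, a measure of RNA integrity, was 5.34, 3.70 and 3.83 log2 at 6am, against 4.41, 4.05 and 4.31 log2 at 12am. That gap for actin was 6.91, 6.92 and 6.91 log2 at 6am, against 7.06, 7.35 and 7.07 log2 at 12am. The part of these differences in the results was not tested, and values that rest on replicate 1 are given with and without it. Array medians lay between 5.90 and 6.03 log2, and levels are relative to the other transcripts of the same array, so total messenger RNA cannot be read from them.

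The labelled tissue carried strong leaf mesophyll transcripts. LHCB4.1, an antenna protein of photosystem II, stood at 14.34, 14.32 and 14.37 log2 at 6am, against 14.39, 14.37 and 14.33 log2 at 12am. The Rubisco activase RCA and the Calvin cycle enzymes PRK and SBPASE lay between 13.28 and 13.68 log2 on the 6 arrays. The beta-glucosidase PYK10, known from seedling roots and hypocotyls, stood at 11.76, 11.89 and 12.05 log2 at 6am, against 11.19, 11.72 and 11.49 log2 at 12am (difference 0.43 ± 0.18 SE, adjusted p = 0.115). The other 2 root markers on named probe sets did not reach the minimum level. The guard cell factor FMA was at 7.31, 7.74 and 7.85 log2 at 6am, against 7.62, 7.26 and 6.87 log2 at 12am (adjusted p = 0.195), and differed by 0.73 log2 with replicates 2 and 3 alone (adjusted p = 0.0122, within 0.0122 to 0.577 over 14 alternatives). These are bulk samples, so fewer cells of a type and less RNA per cell cannot be told apart.

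Between 12am and 6am, 3363 of 14185 probe sets (23.7%) changed at an adjusted p under 0.05 in limma's moderated test. Of these, 1587 (11.2%) were higher at 6am and 1776 (12.5%) were lower. Changes of at least 2-fold were called for 586 higher (4.13%) and 695 lower probe sets (4.9%). The median called rise was 0.88 log2 and the median called fall was -0.90 log2, beside a median of -0.01 over all tested probe sets. The 3 arrays of 6am did not overlap the 3 of 12am for 3275 of the 3363. Calls and overlap rest on the same values, so this count is not separate support. The share without overlap over all tested probe sets was not counted. All 3363 kept their direction when only replicates 2 and 3 were used, and 3132 of them were called again among 5111 calls. When only the 6 compared arrays were fitted, 2317 of the 3363 were called again among 2403 calls. Among the 7718 probe sets that named 1 gene, 1740 (22.5%) changed, 813 higher and 927 lower.

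**Figure D1:**
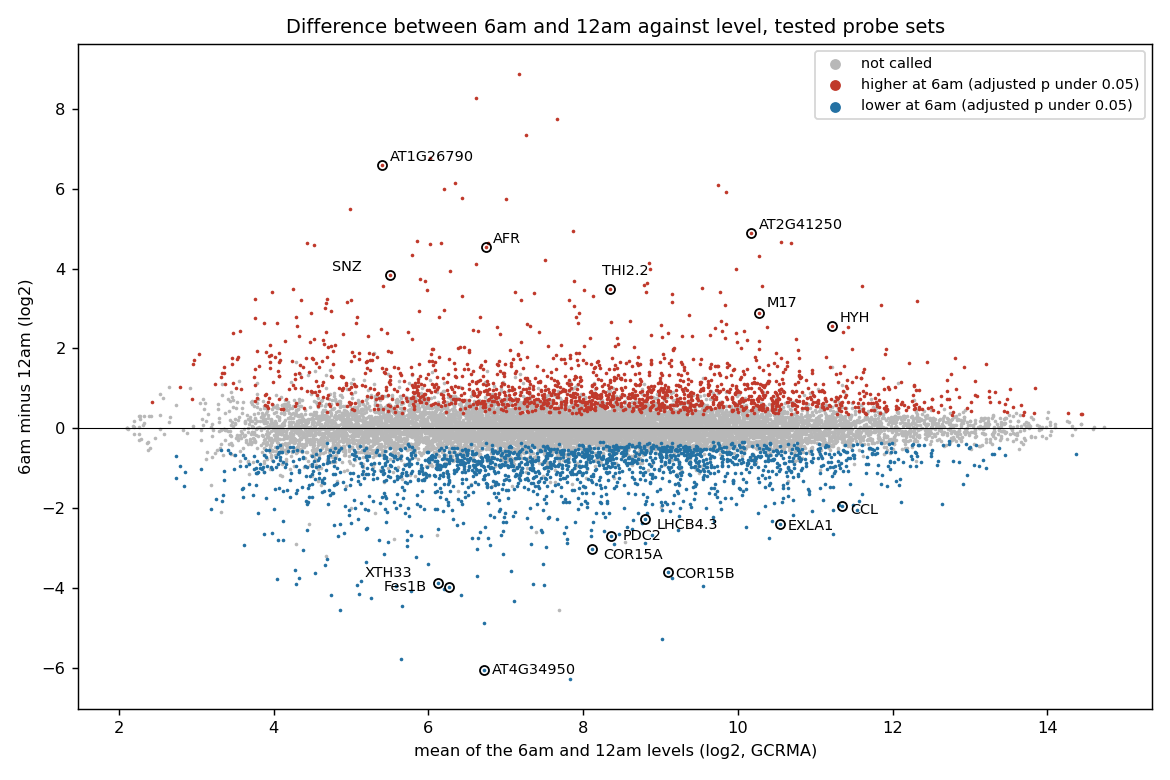
Difference between 6am and 12am (log2, vertical axis) against the mean level of both times (log2, horizontal axis) for 14185 probe sets. Red points are the 1587 called higher at 6am, blue points the 1776 called lower, grey points were not called, and circles mark named genes. AT1G26790, whose 12am arrays lie at the floor of the table, and AT2G41250 stand at the top among named genes and AT4G34950 at the bottom.

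The genes that were high at 6am were not drawn from one time course. Of the 1587 higher probe sets, 1142 had their highest mean of the day at 6am, 362 at 12pm and 83 at 6pm. Their lowest mean fell at 12am for 732, at 6pm for 534 and at 12pm for 321. Of the 1776 lower probe sets, 1321 had their lowest mean of the day at 6am, 295 at 12pm and 160 at 6pm. Their highest mean fell at 12am for 898, at 6pm for 525 and at 12pm for 353. The fit used all 4 times, and these counts describe means without a test of their order.

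Changes of at least 8-fold were called for 57 higher and 32 lower probe sets, and the arrays of the 2 times did not overlap in any of them. Called changes of that size make an overlap unlikely from the start. The annotation named a gene for 15 of the 57 and 19 of the 32. The largest rises between levels above the minimum were on probe sets without a gene name. Probe set 258497_at read 12.76, 12.89 and 12.72 log2 at 6am, against 6.88, 6.68 and 6.52 log2 at 12am (difference 6.10 ± 0.14 SE, 68.5-fold, adjusted p = 3.2e-10). Probe set 261569_at read 12.73, 12.78 and 12.92 log2 at 6am, against 7.35, 6.88 and 6.41 log2 at 12am (difference 5.93 ± 0.21 SE, 60.9-fold, adjusted p = 1.03e-08). Both had their lowest mean of the day at 6pm, at 4.87 and 2.42 log2. In the other direction, probe set 249850_at read 4.81, 4.54 and 4.74 log2 at 6am, against 10.22, 11.33 and 11.36 log2 at 12am (difference -6.27 ± 0.27 SE, 77.3-fold lower, adjusted p = 4.04e-08). The 256766_at probe set read 5.27, 6.99 and 6.87 log2 at 6am, against 10.11, 12.55 and 12.32 log2 at 12am (difference -5.29 ± 0.59 SE, 39-fold lower, adjusted p = 7.3e-05).

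A rise out of the floor of the table was that of AT1G26790, a gene of the Dof family of transcription factors. It stood at 8.60, 8.88 and 8.63 log2 at 6am, against 2.10 log2 on all 3 arrays of 12am, which is the lowest value in the table. It was at least 26-fold higher at 6am (adjusted p = 1.9e-11), and its mean was 2.10 log2 at 12pm and at 6pm too. A signal was thus present at 6am alone among the 4 times. Arrays at the floor show no spread, so among its own arrays only those of 6am add spread to this p-value. On the 6 compared arrays alone its adjusted p was 4.69e-06. AT2G41250 rose to 12.31, 12.66 and 12.89 log2 at 6am, against 8.17, 7.43 and 7.56 log2 at 12am (29.9-fold, adjusted p = 5.73e-08). AT4G31875 rose to a mean of 9.09 log2 at 6am, against 4.45 log2 at 12am (24.8-fold, adjusted p = 1.63e-08), and AT4G15430 to 9.62 log2, against 5.39 log2 (18.7-fold, adjusted p = 1.7e-05). The annotation used here names these 3 by locus only.

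The largest rise among genes with a symbol was that of a light-signalling gene. AFR, a Kelch-repeat F-box protein of phytochrome A signalling, read 8.86, 9.07 and 9.12 log2 at 6am, against 4.74, 4.26 and 4.38 log2 at 12am (difference 4.55 ± 0.34 SE, 23.5-fold, adjusted p = 3.74e-06). HYH, the bZIP factor closest to HY5, read 12.50, 12.49 and 12.50 log2 at 6am, against 10.28, 9.80 and 9.71 log2 at 12am (difference 2.57 ± 0.19 SE, 5.92-fold, adjusted p = 3.57e-06). The arrays did not overlap for either gene, but lack of overlap was part of the rule for naming genes and is not separate support. HYH had its highest mean of the day at 6am. FHL, which carries phytochrome A into the nucleus, fell to 3.66, 2.69 and 2.84 log2 at 6am, against 4.59, 4.07 and 4.80 log2 at 12am (at least 1.40-fold lower, adjusted p = 0.00268), with its 6am mean under the minimum of 4. So 2 of the 3 tested members of the light-signalling list rose and 1 fell, beside 22.5% of all probe sets that name 1 gene changing either way. The 3 calls held in each alternative in which the gene was tested. The list held 20 loci, matched by 3 probe sets.

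SNZ, an AP2-type factor that represses flowering, read 7.38, 7.54 and 7.38 log2 at 6am, against 3.49, 3.71 and 3.55 log2 at 12am (at least 10.8-fold higher, adjusted p = 2.52e-08). Its means at 12pm and 6pm were 8.17 and 7.44 log2, so it was low at 12am alone. Among genes of the clock, the morning-list member AT5G52660, known as RVE6, stood at 6.21, 6.87 and 6.63 log2 at 6am, against 5.88, 5.96 and 6.06 log2 at 12am (difference 0.60 ± 0.17 SE, adjusted p = 0.0242). That call was lost without 6am replicate 2 or 3 or without 12am replicate 1 or 2, with an adjusted p between 0.00298 and 0.0971 over 14 alternatives. It was also lost on the 6 compared arrays alone (adjusted p = 0.0762). GI, the evening gene GIGANTEA, read 2.10 log2 on all 6 arrays, the lowest value in the table, against means of 8.41 log2 at 12pm and 7.40 log2 at 6pm. No change between 6am and 12am could be measured for it.

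**Figure D2:**
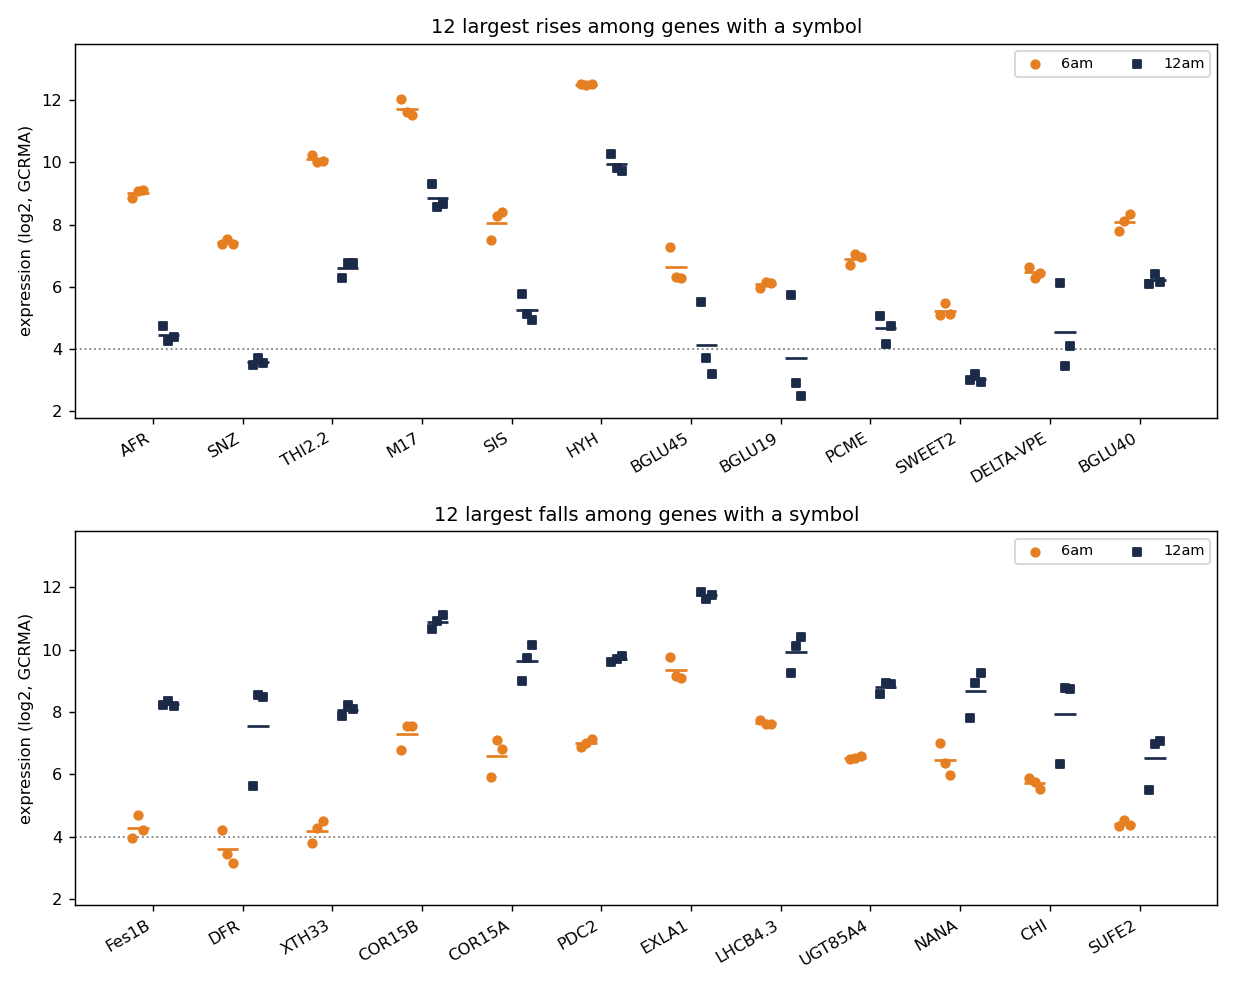
Expression (log2, vertical axis) on each array of 6am (orange circles) and 12am (dark squares) for the 12 largest rises and 12 largest falls among genes with a symbol; short lines are means of 3 arrays and the dotted line is the minimum of 4. AFR sits near 9 at 6am and near 4.5 at 12am. In DFR, CHI, BGLU19 and DELTA-VPE 1 square, 12am replicate 1, lies nearest to the 6am circles.

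Other large rises among genes with a symbol came from varied groups. The thionin THI2.2, a small antimicrobial peptide, read 10.24, 10.01 and 10.04 log2 at 6am, against 6.28, 6.76 and 6.76 log2 at 12am (11.3-fold, adjusted p = 9.77e-06). M17, a late embryogenesis abundant protein, read 12.03, 11.62 and 11.51 log2 at 6am, against 9.30, 8.56 and 8.65 log2 at 12am (7.36-fold, adjusted p = 3.96e-06). SIS, known from salt tolerance, read 7.50, 8.26 and 8.41 log2 at 6am, against 5.76, 5.13 and 4.92 log2 at 12am (6.91-fold, adjusted p = 2.35e-05). The arrays of the 2 times did not overlap in any of these 3 genes, but lack of overlap was a condition for naming them. PCME, a prenylcysteine methylesterase of abscisic acid signalling, rose to a mean of 6.90 log2 at 6am, against 4.67 log2 at 12am (4.72-fold, adjusted p = 0.000363). ICL, the isocitrate lyase of the glyoxylate cycle, rose to 7.72, 7.42 and 7.56 log2 at 6am, against 6.04, 5.92 and 5.71 log2 at 12am (3.2-fold, adjusted p = 5.51e-05).

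Smaller rises included regulators and enzymes. The bZIP factor BZIP24 rose 3.1-fold to a mean of 7.14 ± 0.31 log2 at 6am, against 5.51 ± 0.26 log2 at 12am (SD, n = 3 each, adjusted p = 4.5e-05). The bHLH factor bHLH34 rose 3.1-fold (adjusted p = 0.000319), and BHLH101, which acts in iron deficiency, rose 2.55-fold (adjusted p = 0.000632). The F-box protein SKP2A, which targets cell cycle factors for breakdown, rose 3.01-fold (adjusted p = 3.03e-05). TRY, which represses trichome formation, read 8.42, 8.97 and 8.75 log2 at 6am, against 6.57, 7.18 and 7.66 log2 at 12am (2.98-fold, adjusted p = 0.0107). SAMDC, which makes the aminopropyl donor for polyamines, rose 2.4-fold (adjusted p = 0.000364), and AAPT2, of phospholipid synthesis, rose 2.76-fold (adjusted p = 0.00305). In the fixed lists of these factor families, 3 of 14 bZIP genes rose and 1 fell. Of 7 bHLH genes 2 rose and none fell, and none of 6 WRKY genes was called. The fixed lists, too, were chosen with earlier results of these data known. The shares of 28.6% for bZIP and 28.6% for bHLH genes lie near the 22.5% over probe sets naming 1 gene.

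Cold-regulated genes were lower at 6am. In the cold list, 5 of 7 tested members fell and none rose (71.4%, beside 22.5% over probe sets naming 1 gene), with a median difference of -1.53 log2. COR15B, a chloroplast protein that protects membranes in the cold, read 6.80, 7.54 and 7.54 log2 at 6am, against 10.65, 10.93 and 11.11 log2 at 12am (difference -3.61 ± 0.20 SE, 12.2-fold lower, adjusted p = 2.83e-07). Its sister COR15A read 5.90, 7.09 and 6.81 log2 at 6am, against 8.98, 9.74 and 10.17 log2 at 12am (8.15-fold lower, adjusted p = 4.91e-05). For both genes 6am replicate 1 was the lowest of the 6 arrays. COR47, a dehydrin, fell 2.11-fold to a mean of 10.72 log2 at 6am, against 11.80 log2 at 12am (adjusted p = 0.00233). COR27, a cold-regulated protein that also acts in the clock, read 8.04, 8.90 and 8.78 log2 at 6am, against 10.51, 9.82 and 9.96 log2 at 12am (2.88-fold lower, adjusted p = 0.0012). Its relative AT4G33980 read 4.06, 5.56 and 5.73 log2 at 6am, against 8.84, 7.77 and 7.82 log2 at 12am (8.14-fold lower, adjusted p = 0.000368). All 5 calls held in every alternative setting. The zinc finger factor STZ (-1.41 ± 0.85 SE, adjusted p = 0.264) and the dehydrin LTI30 (-0.41 ± 0.24 SE, adjusted p = 0.247) did not pass the test. With replicates 2 and 3 alone STZ fell by 1.70 log2 (adjusted p = 0.000377, within 0.000377 to 0.483 over its alternatives).

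AT4G30650, another cold-regulated gene outside that list, read 4.19, 6.12 and 5.89 log2 at 6am, against 8.74, 9.54 and 9.63 log2 at 12am (difference -3.91 ± 0.42 SE, 15-fold lower, adjusted p = 5.25e-05). Without 6am replicate 1 the same difference was 9.86-fold. COR15A, COR15B, COR47 and AT4G30650 all had higher means at 12pm and at 6pm than at 12am, so the 6am arrays held their lowest level of the day.

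The rest of the large falls covered metabolism, chaperones and cell wall enzymes. Fes1B, a nucleotide exchange factor of Hsp70 chaperones, read 3.95, 4.70 and 4.20 log2 at 6am, against 8.24, 8.34 and 8.18 log2 at 12am (difference -3.97 ± 0.20 SE, 15.7-fold lower, adjusted p = 1.07e-07). Its relatives Fes1A (0.02 log2, adjusted p = 0.973) and Fes1C (0.15 log2, adjusted p = 0.614) did not pass the test, though Fes1C was called with replicates 2 and 3 alone (0.50 log2, adjusted p = 0.0227, within 0.0227 to 0.989 over 14 alternatives). PDC2, a pyruvate decarboxylase of ethanol fermentation, read 6.87, 7.01 and 7.13 log2 at 6am, against 9.62, 9.72 and 9.80 log2 at 12am (6.53-fold lower, adjusted p = 1.07e-07). PDC2 had means of 9.90 log2 at 12pm and 9.83 log2 at 6pm, so it was low at 6am alone. The locus with the largest fall by lower bound was AT4G34950, at 3.35, 3.40 and 4.32 log2 at 6am, against 9.48, 9.95 and 9.80 log2 at 12am (at least 53.6-fold lower, adjusted p = 4.18e-08). CCL fell 3.88-fold to a mean of 10.37 log2 at 6am, against 12.33 log2 at 12am (adjusted p = 3.39e-06). NANA, an aspartic protease of the chloroplast, fell 4.68-fold (adjusted p = 0.00063), and SUFE2, which activates sulfur for iron-sulfur clusters in plastids, fell 4.3-fold (adjusted p = 0.00213). CHL, the chloroplast lipocalin, fell 2.79-fold to a mean of 10.45 log2 at 6am, against 11.93 log2 at 12am (adjusted p = 3.6e-05).

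**Figure D3:**
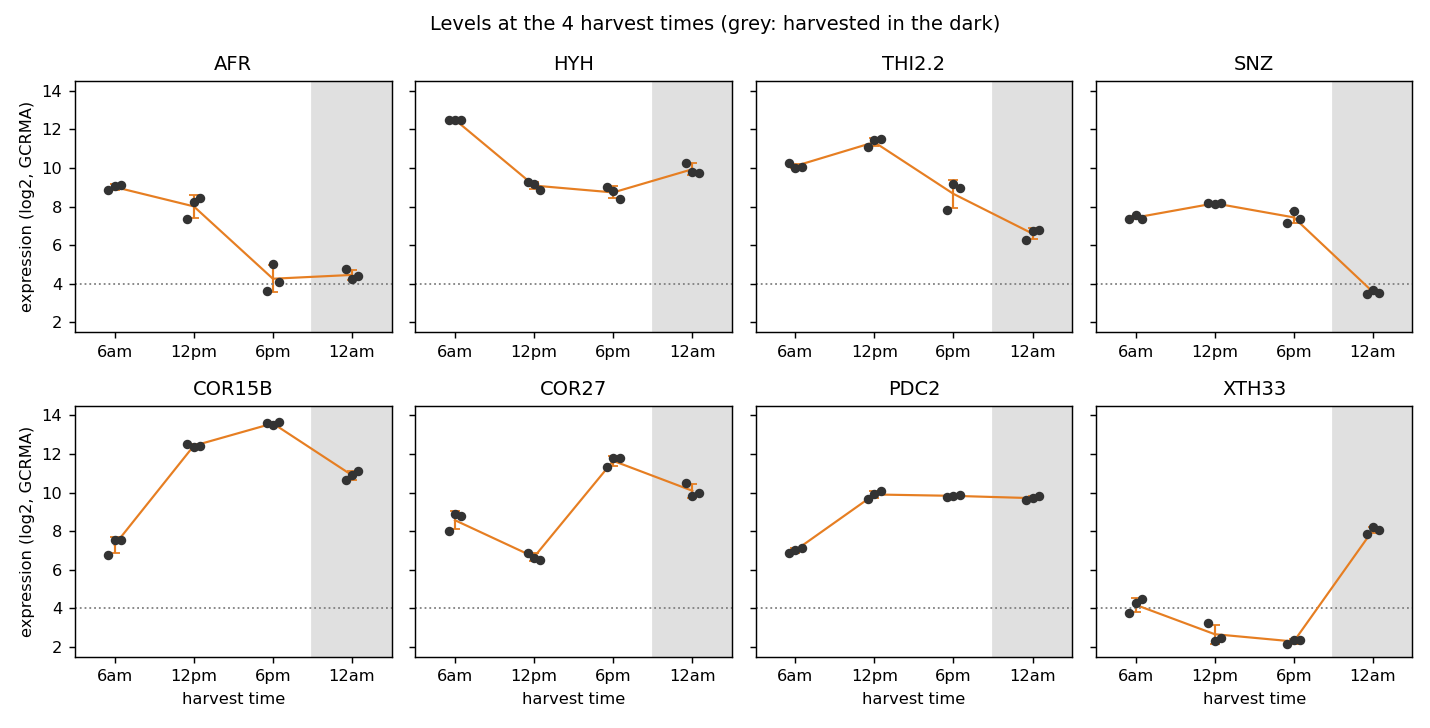
Expression (log2, vertical axis) of 8 genes at 6am, 12pm, 6pm and 12am; points are arrays, the orange line joins means with SD over 3 arrays, the dotted line is the minimum of 4 and grey marks the harvest in the dark. AFR is high at 6am and 12pm, HYH peaks at 6am, SNZ is low at 12am alone, PDC2 is low at 6am alone and XTH33 is high at 12am alone.

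Cell wall genes that changed were mostly lower at 6am. In the list of expansins and xyloglucan-remodelling enzymes, 6 of 17 tested members fell, 1 rose and 10 did not pass the test (41.2% called, beside 22.5%), with a median difference of -0.60 log2. With replicates 2 and 3 alone 3 of them rose and 6 fell. XTH33, a xyloglucan endotransglucosylase/hydrolase, read 3.79, 4.29 and 4.50 log2 at 6am, against 7.88, 8.21 and 8.08 log2 at 12am (difference -3.87 ± 0.24 SE, 14.6-fold lower, adjusted p = 9.93e-07). Its means at 12pm and 6pm were 2.67 and 2.29 log2, so XTH33 had a clear signal at 12am alone. EXLA1, an expansin-like protein, read 9.77, 9.15 and 9.11 log2 at 6am, against 11.85, 11.62 and 11.77 log2 at 12am (5.3-fold lower, adjusted p = 0.000658). XTH16 fell 2.48-fold (adjusted p = 0.000101) and EXLA2 fell 1.73-fold (adjusted p = 0.0035). The falls of XTH33, EXLA1, XTH16 and EXLA2 held in every alternative, and the other 3 calls of the list did not. All 4 tested members of the list of cellulose synthase-like genes fell (22.5% changed among all probe sets naming 1 gene), with a median of -0.67 log2. CSLC04, which makes the backbone of xyloglucan, read 6.05, 6.39 and 6.23 log2 at 6am, against 7.64, 7.92 and 7.78 log2 at 12am (2.94-fold lower, adjusted p = 0.000415). CSLD2 fell 1.53-fold (adjusted p = 0.00883). The calls of CSLC04 and CSLD2 held in every alternative and those of CSLA03 and CSLC5 did not.

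Photosynthesis genes moved little or in both directions. Of the 3 tested members of the LHCB4 antenna family, LHCB4.2 rose to 13.87, 14.10 and 14.07 log2 at 6am, against 13.09, 13.03 and 12.97 log2 at 12am (1.98-fold, adjusted p = 0.000175). The variant LHCB4.3 fell to 7.75, 7.62 and 7.61 log2 at 6am, against 9.26, 10.12 and 10.42 log2 at 12am (4.84-fold, adjusted p = 9.36e-05), and LHCB4.1 differed by -0.02 ± 0.10 log2 (adjusted p = 0.903). None of the 3 tested Calvin cycle genes, from a list of 18 loci, was called. Their differences were 0.19 log2 for RCA, 0.07 for PRK and -0.11 for SBPASE, with standard errors of 0.12 to 0.13. None of 5 nuclear photosystem subunits was called either, though limma gave 2 of them an unadjusted p under 0.05. Among 9 nuclear factors of the plastid NDH complex, which carries electrons around photosystem I, 4 fell and 1 rose (55.6% called, beside 22.5%). When 12am replicate 1 was left out, 2 of the 9 fell. NdhS rose 1.41-fold (adjusted p = 0.0085), while CRR42 fell 2.11-fold (adjusted p = 0.00697) and PIFI fell 1.55-fold (adjusted p = 0.00405). Of the 67 plastid-encoded transcripts none was called and 1 had an unadjusted p under 0.05 in limma, with a median difference of -0.08 log2. The RNA was primed with oligo(dT), and how fully that captures plastid-encoded transcripts was not tested. Steady plastid transcript abundance cannot be read from the lack of calls. With replicates 2 and 3 alone, 5 of the 67 were called higher at 6am.

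In pigment synthesis, PORB, the light-dependent protochlorophyllide reductase, read 10.14, 10.63 and 10.73 log2 at 6am, against 11.66, 11.55 and 11.63 log2 at 12am (2.17-fold lower, adjusted p = 0.000363). The geranylgeranyl reductase AT1G74470, which makes the phytol tail of chlorophyll, stood at a mean of 13.76 log2 at 6am, against 13.14 log2 at 12am (difference 0.62 ± 0.15 SE, adjusted p = 0.0122). That call was lost without 6am replicate 3 or 12am replicate 3, with an adjusted p of 0.00126 to 0.0551 over 14 alternatives. CHLM, GSA1 and HEMB1 of the same pathway differed by 0.29, -0.06 and -0.13 log2 and did not pass the test.

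Both tested genes of starch breakdown were lower at 6am (100% called, beside 22.5% over probe sets naming 1 gene). That list held 15 loci, matched by 2 probe sets, so most of the pathway was not seen. DPE1, the disproportionating enzyme that acts on maltotriose in the chloroplast, read 8.30, 8.12 and 8.19 log2 at 6am, against 9.76, 9.34 and 9.50 log2 at 12am (difference -1.34 ± 0.14 SE, 2.53-fold lower, adjusted p = 3.93e-05). PWD, which phosphorylates the glucan chains of the starch granule, read 9.52, 9.58 and 9.54 log2 at 6am, against 10.59, 10.38 and 10.33 log2 at 12am (1.85-fold lower, adjusted p = 0.000452). Both calls held in every alternative. In starch synthesis the pyrophosphorylase subunit APL3 stood at a mean of 5.13 log2 at 6am, against 5.95 log2 at 12am (difference -0.82 ± 0.21 SE, adjusted p = 0.0153), and SBE2.2 (-0.18) and APL4 (0.19) did not pass the test. The APL3 call was lost without 6am or 12am replicate 2 or 3, each of which left an adjusted p between 0.0572 and 0.0697. It was also lost on the 6 compared arrays alone (adjusted p = 0.0520).

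The list of sugar starvation and amino acid breakdown held 6 tested genes, of which 2 rose (33.3%, beside 22.5% over probe sets naming 1 gene), with a median of 0.86 log2. Of these 6 genes, 5 were called higher on replicates 2 and 3 alone, and 4 when 12am replicate 1 was left out. ETFQO, which passes electrons from leucine breakdown to the respiratory chain, read 7.68, 6.90 and 7.11 log2 at 6am, against 7.16, 5.63 and 5.35 log2 at 12am (difference 1.19 ± 0.38 SE, adjusted p = 0.041). IVD, the isovaleryl-CoA dehydrogenase of leucine breakdown, read 11.46, 10.73 and 10.76 log2 at 6am, against 10.82, 9.23 and 9.37 log2 at 12am (difference 1.18 ± 0.38 SE, adjusted p = 0.0442). MCCA, a subunit of the next enzyme, read 12.95, 12.49 and 12.47 log2 at 6am, against 12.66, 10.89 and 10.93 log2 at 12am (difference 1.14 ± 0.39 SE, adjusted p = 0.0536). In all 3 genes replicate 1 was the highest array of its time, and 12am replicate 1 overlapped the 6am arrays. Without 12am replicate 1 the differences were 1.74, 1.68 and 1.73 log2, and with replicates 2 and 3 alone they were 1.52, 1.45 and 1.57 log2 (adjusted p = 0.000114, 0.000134 and 9.35e-05). The calls of ETFQO and IVD were lost without 6am replicate 1, 2 or 3 or 12am replicate 2 or 3, with an adjusted p of up to 0.175. Both were lost too on the 6 compared arrays alone (adjusted p = 0.137 and 0.119). Without a filter on dim probe sets both were lost as well (adjusted p = 0.119 and 0.125). The IVD call was also lost when the arrays were quantile-normalized again (adjusted p = 0.0534). MCCB (0.45 log2, adjusted p = 0.162), D2HGDH (0.11 log2) and AT3G15450 (0.57 log2, adjusted p = 0.439) did not pass the test. Without 12am replicate 1, MCCB differed by 0.69 log2 (adjusted p = 0.0237, within 0.0237 to 0.447 over 14 alternatives) and AT3G15450 by 1.13 log2 (adjusted p = 0.0664). With replicates 2 and 3 alone AT3G15450 differed by 1.34 log2 (adjusted p = 0.00345, within 0.00345 to 0.852 over 14 alternatives).

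Transporters and nitrogen genes included large rises. Of 6 tested members of the nitrate, ammonium and amino acid transport list, 3 rose and none fell (50% called, beside 22.5%). Leaving out 12am replicate 1 gave 2 rises and 1 fall, and replicates 2 and 3 alone gave 3 rises and 1 fall. AT3G21670, listed as NPF6.4 of the nitrate and peptide transporter family, read 8.93, 9.51 and 9.46 log2 at 6am, against 6.56, 6.52 and 6.46 log2 at 12am (6.9-fold, adjusted p = 1.19e-05). AT2G26690, listed as NPF6.2 of that family, read 9.74, 10.29 and 10.13 log2 at 6am, against 7.96, 7.62 and 7.55 log2 at 12am (5.07-fold, adjusted p = 3.33e-06). Both calls held in every alternative. SWEET2, a sugar transporter of the vacuole, read 5.09, 5.49 and 5.13 log2 at 6am, against 3.00, 3.19 and 2.96 log2 at 12am (at least 2.36-fold higher, adjusted p = 2.1e-05). Of 3 tested genes for the breakdown of allantoin, a nitrogen-rich product of purines, 1 rose, 1 fell and 1 was not called. The called share was 66.7%, beside 22.5%. The first enzyme ALN fell 3.45-fold to a mean of 5.49 log2 at 6am, against 7.28 log2 at 12am (adjusted p = 0.00045). AAH, which acts on its product, rose 1.7-fold to 9.69 log2 at 6am, against 8.92 log2 at 12am (adjusted p = 0.00404). That list and the other families named from gene symbols were drawn up after the values were seen.

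Of 4 tested genes of glucosinolates, the sulfur-rich defence compounds of the cabbage family, 2 rose (50% called, beside 22.5%). BCAT4, which starts the elongation of methionine, read 10.82, 11.16 and 11.18 log2 at 6am, against 9.77, 9.46 and 9.57 log2 at 12am (2.74-fold, adjusted p = 0.000115). UGT74B1, which adds glucose to the thiohydroximate, rose 1.78-fold to a mean of 9.47 log2 at 6am, against 8.64 log2 at 12am (adjusted p = 0.00397). Means were higher still at 12pm and 6pm, at 9.91 and 10.31 log2 for UGT74B1 and 12.14 and 12.16 log2 for BCAT4. The transporters GTR1 (-0.70 log2, adjusted p = 0.094) and GTR2 (-0.10 log2) did not pass the test, though without 12am replicate 1 GTR1 fell by 1.03 log2 (adjusted p = 0.00711, within 0.00210 to 0.309 over 14 alternatives).

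UDP-glycosyltransferases, which add sugars to hormones and secondary compounds, changed in 15 of 30 tested members (50%, beside 22.5% over probe sets naming 1 gene), 11 lower and 4 higher, with a median of -0.16 log2. UGT85A4 read 6.48, 6.53 and 6.58 log2 at 6am, against 8.57, 8.94 and 8.90 log2 at 12am (4.83-fold lower, adjusted p = 2.84e-06). UGT85A2 fell 4.12-fold (adjusted p = 0.000111), UGT85A5 fell 2.02-fold (adjusted p = 0.00125) and UGT85A3 fell at least 2.02-fold (adjusted p = 0.000276). UGT80B1, which adds glucose to sterols, fell 2.97-fold to a mean of 5.32 log2 at 6am, against 6.89 log2 at 12am (adjusted p = 1.76e-05). UGT74D1 rose 1.69-fold (adjusted p = 0.00235). Of the 15 calls, 10 falls and 2 rises held in each alternative in which the gene was tested. These enzymes are close relatives, and an array probe set may take signal from more than 1 of them.

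DFR, the dihydroflavonol reductase of anthocyanin synthesis, read 4.20, 3.44 and 3.16 log2 at 6am, against 5.64, 8.54 and 8.49 log2 at 12am (at least 11.8-fold lower, adjusted p = 0.000787). AT4G14090, the other tested member of the anthocyanin and flavonoid list, read 4.83, 4.10 and 3.87 log2 at 6am, against 5.16, 7.38 and 7.34 log2 at 12am (5.14-fold lower, adjusted p = 0.00507). In both genes 12am replicate 1 lay more than 2 log2 units below replicates 2 and 3, yet above every 6am array. Without 12am replicate 1 the folds were at least 22.9 for DFR and 8.55 for AT4G14090, and without 12am replicate 2 they were at least 8.37 and 3.96. Both tested members of the list were called (100%, beside 22.5% over probe sets naming 1 gene). That list held 17 loci, matched by 3 probe sets, so most of the pathway was not seen.

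The array of 12am replicate 1 also stood apart in the next genes, which include defence genes. AT4G12500 read 4.23, 4.21 and 4.40 log2 at 6am, against 5.0, 11.18 and 11.31 log2 at 12am (29.5-fold lower, adjusted p = 0.0181). Without 12am replicate 1 it was 125-fold lower, and its call was lost without 12am replicate 2 (-3.88 log2, adjusted p = 0.082) or replicate 3 (-3.81 log2, adjusted p = 0.0832), within a range of 1.15e-07 to 0.0832 over 14 alternatives. The call was lost too on the 6 compared arrays alone (adjusted p = 0.0818) and with no filter on dim probe sets (0.0745). The chitinase CHI read 5.89, 5.76 and 5.54 log2 at 6am, against 6.35, 8.76 and 8.75 log2 at 12am (4.66-fold lower, adjusted p = 0.0121). Its fold was 8.13 without 12am replicate 1, and its call was lost without 12am replicate 2 or 3 (adjusted p = 0.0572 and 0.0583), within a range of 1.23e-05 to 0.0583 over 14 alternatives. Peroxidase 71, AT5G64120, read 7.14, 6.57 and 6.51 log2 at 6am, against 7.14, 10.56 and 10.65 log2 at 12am, so the arrays overlapped (difference -2.71 ± 0.72 SE, adjusted p = 0.0184). It was 14.6-fold lower without 12am replicate 1, and its call was lost without 6am or 12am replicate 2 or 3 (adjusted p of 0.0542 to 0.0846, within 1.34e-06 to 0.0868 over 14 alternatives). The ubiquitin ligases PUB22 and PUB23, which restrain immune signalling, fell by 1.26 and 1.34 log2 (adjusted p = 0.0417 and 0.0265), and by 1.75 and 1.92 log2 without 12am replicate 1. Both calls were lost when any 6am array, 12am replicate 2 or 12am replicate 3 was left out, with an adjusted p of 0.0520 to 0.162. In the fixed list of disease resistance proteins, 3 of 5 tested members rose and 1 fell, with a median of 1.69 log2. The called share was 80%, beside 22.5% over probe sets naming 1 gene, and 1 rise held in every alternative. Without 12am replicate 1 the list had 1 rise and 1 fall. None of the 6 WRKY factors tested, a family of defence regulators, was called, nor had any an unadjusted p under 0.05 in limma.

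**Figure D4:**
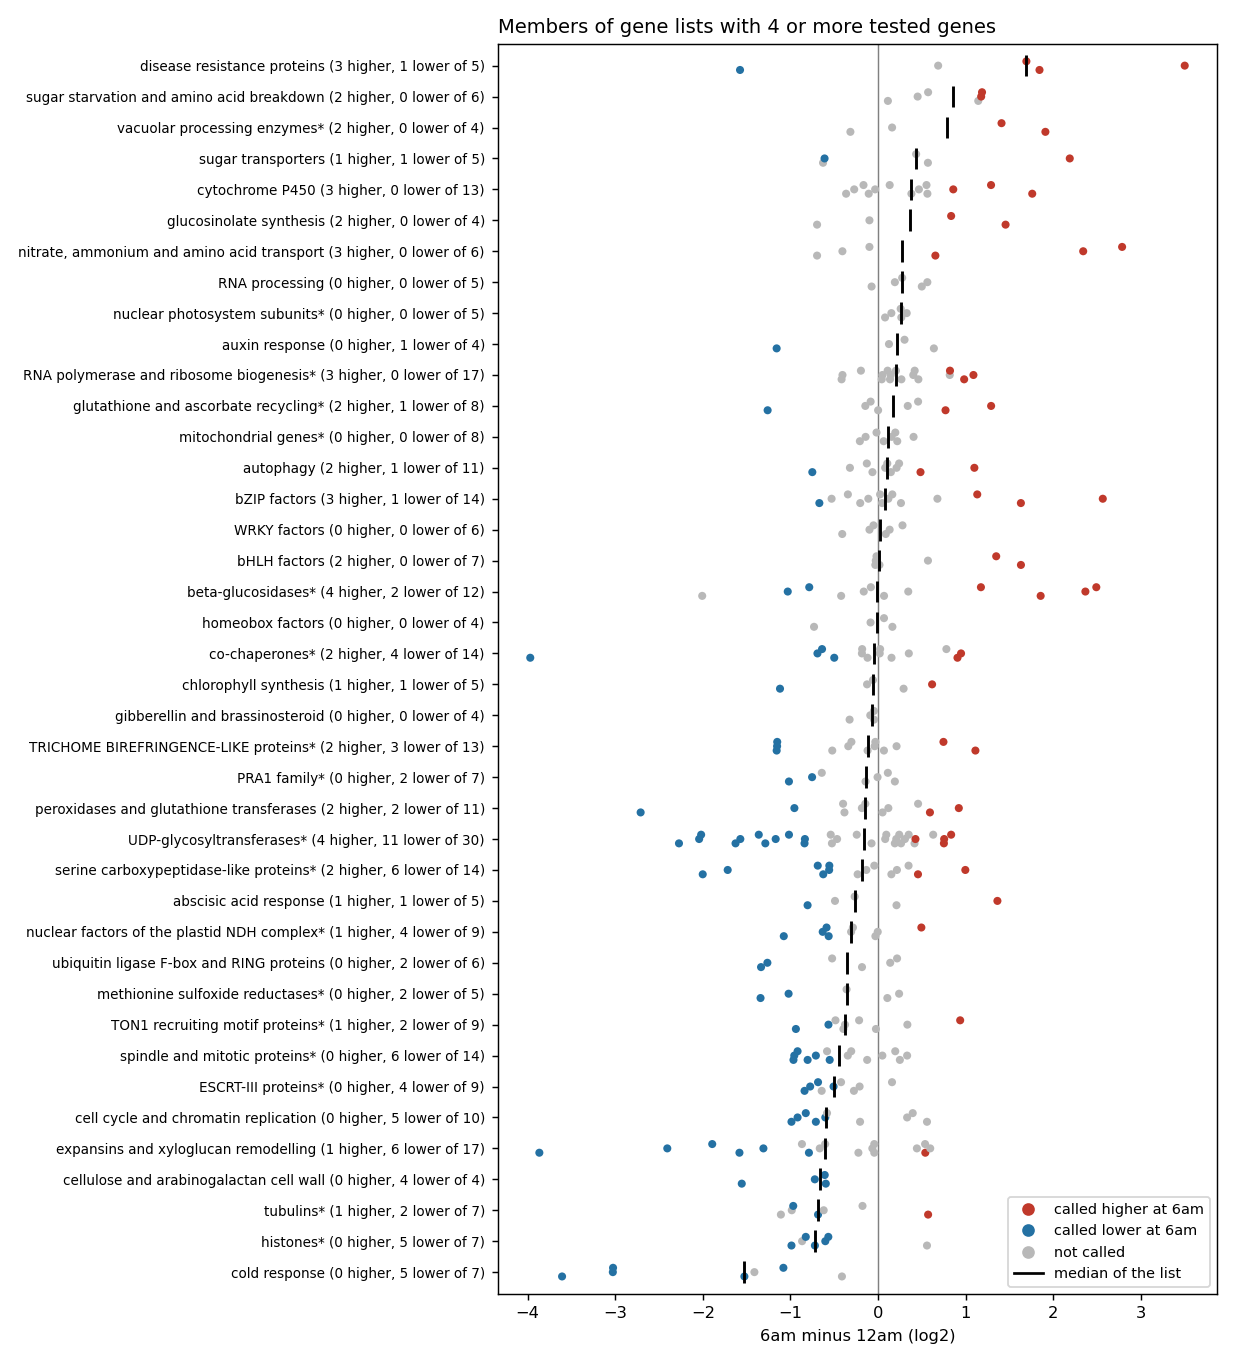
Difference between 6am and 12am (log2, horizontal axis) of each tested member of the lists with 4 or more tested genes, ordered by the list median (black line). The list of plastid-encoded genes and the lists of cell type markers are not drawn. Red points were called higher at 6am, blue points lower and grey points not called. Lists with an asterisk were drawn up after the values were seen, and the others with earlier results of these data known. The cold list has the lowest median (-1.53), followed by histones (-0.72).

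Genes of cell division and of chromatin were lower at 6am where they changed. In the fixed list of cell cycle and chromatin replication, 5 of 10 tested members fell and none rose (50% called, beside 22.5%), with a median of -0.59 log2. With replicates 2 and 3 alone 6 of the 10 fell and 2 rose. HTR12, the histone H3 of centromeres, read 5.90, 6.02 and 5.76 log2 at 6am, against 6.81, 6.68 and 7.16 log2 at 12am (1.98-fold lower, adjusted p = 0.000898). AUR1, an Aurora kinase of the mitotic spindle, read 6.58, 6.65 and 6.65 log2 at 6am, against 7.52, 7.55 and 7.57 log2 at 12am (1.89-fold lower, adjusted p = 0.000971). The histone HTB2, of the H2B family, read 11.01, 10.88 and 10.77 log2 at 6am, against 11.51, 11.77 and 11.85 log2 at 12am (1.77-fold lower, adjusted p = 0.00211). These 3 calls held in every alternative, and those of HON4 and KINESIN-12B did not. Among lists drawn up afterwards, 5 of 7 histones (71.4%), 6 of 14 spindle and mitotic proteins (42.9%) and 4 of 9 ESCRT-III proteins (44.4%), which cut membranes, fell and none rose, beside 22.5% called either way over probe sets naming 1 gene. The histone and spindle lists each share 4 tested members with the cell cycle list, so those genes are counted in both. With replicates 2 and 3 alone 1 histone and 1 spindle protein rose. Of the calls in these 3 lists, 2, 2 and 3 held in every alternative. VPS2.1 fell 1.71-fold (adjusted p = 0.00154) and VPS20.1 fell 1.61-fold (adjusted p = 0.00364). Of 7 tubulins, 3 changed (42.9%). TUB5 fell 1.96-fold (adjusted p = 0.00231) and TUB7 fell 1.61-fold (adjusted p = 0.00312), while TUA1 was higher by 0.57 log2 (adjusted p = 0.0306), a call lost without 6am or 12am replicate 2 or 3 (adjusted p = 0.0894 to 0.133).

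Of 17 tested genes of RNA polymerase and ribosome biogenesis, 3 rose and none fell (17.6%, below the 22.5% over probe sets naming 1 gene), with a median of 0.20 log2. With replicates 2 and 3 alone 5 rose and 1 fell. IMP4, of the small-subunit processome, read 6.62, 6.55 and 6.68 log2 at 6am, against 5.67, 5.54 and 5.38 log2 at 12am (2.13-fold, adjusted p = 0.00158). DIM1A, which methylates ribosomal RNA, rose 1.98-fold (adjusted p = 0.000458). NRPA2, the second-largest subunit of RNA polymerase I, rose 1.77-fold (adjusted p = 0.00127).

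Enzymes that recycle glutathione and ascorbate moved both ways. GR1, the cytosolic glutathione reductase, read 11.97, 12.27 and 12.26 log2 at 6am, against 10.85, 10.99 and 10.79 log2 at 12am (2.45-fold, adjusted p = 8.89e-05), and the plastid enzyme GR rose 1.71-fold (adjusted p = 0.0102). ATMDAR2, a monodehydroascorbate reductase, fell 2.4-fold to a mean of 8.63 log2 at 6am, against 9.89 log2 at 12am (adjusted p = 0.00022). The other 5 of 8 tested members did not pass the test (37.5% called, beside 22.5%). Among 11 autophagy genes 3 changed (27.3%, near the 22.5% over probe sets naming 1 gene). ATG8B rose 2.14-fold to 10.33 log2 at 6am, against 9.23 log2 at 12am (adjusted p = 0.000477), and ATG8D fell 1.68-fold (adjusted p = 0.00446). ATG8F was higher by 0.48 log2 (adjusted p = 0.018), a call lost without 6am replicate 2 or 3 or 12am replicate 3 (adjusted p = 0.0665 to 0.0817).

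Hydrolases of several families also split. Of 12 beta-glucosidases, 4 rose and 2 fell (50% called, beside 22.5%), and 4 rose and 4 fell with replicates 2 and 3 alone. BGLU40 read 7.80, 8.10 and 8.35 log2 at 6am, against 6.11, 6.41 and 6.16 log2 at 12am (3.62-fold, adjusted p = 0.000104). BGLU45 rose 5.62-fold to 7.27, 6.30 and 6.30 log2 at 6am, against 5.50, 3.71 and 3.19 log2 at 12am (adjusted p = 0.0048). Without 12am replicate 1 its 12am mean lay under the minimum of 4, its difference was 3.18 log2 and its rise at least 6.17-fold. BGLU46 rose 2.26-fold (adjusted p = 0.00223). BGLU45 and BGLU46 act on the glucosides of lignin precursors. BGLU42 fell 2.04-fold (adjusted p = 0.000222). Of 14 serine carboxypeptidase-like proteins, 6 fell and 2 rose (57.1% called, beside 22.5%), with SCPL34 at 8.79, 8.45 and 8.51 log2 at 6am, against 10.51, 10.67 and 10.58 log2 at 12am (4-fold lower, adjusted p = 1.65e-05). SCPL49 fell 3.29-fold (adjusted p = 0.000199). Of 4 vacuolar processing enzymes, proteases that mature vacuolar proteins, BETA-VPE rose 2.66-fold (adjusted p = 0.0019). DELTA-VPE read 6.65, 6.30 and 6.45 log2 at 6am, against 6.12, 3.45 and 4.11 log2 at 12am (difference 1.91 ± 0.51 SE, adjusted p = 0.0186), and its call was lost without 12am replicate 2 or 3 (adjusted p = 0.0746 and 0.0796). Its 12am replicate 1 was the highest array of that time, so the difference was larger without it.

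Of the 64 lists with a tested member, 18 had no call. Besides the Calvin cycle, plastid, photosystem subunit, WRKY and root lists given above, the larger ones were the 8 mitochondrial genes, 5 genes of RNA processing, 4 of gibberellin and brassinosteroid and 4 homeobox factors. In limma none of the 8 mitochondrial genes and none of the 4 gibberellin and brassinosteroid genes had an unadjusted p under 0.05, against 2 of the 5 RNA processing genes and 1 of the 4 homeobox factors. Differences in these 4 lists lay between -0.73 and 0.56 log2.

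The change through the night was set against the change from 12pm to 6pm, which also spans 6 h and shares no array with it. From 12pm to 6pm, 905 probe sets (6.38%) were higher and 1119 (7.89%) lower at 6pm. The 2 steps differed for 3141 of 14185 probe sets (22.1%), and the night step was the more positive for 1542 and the more negative for 1599. Of the 1587 probe sets that rose in the night, 529 (33.3%) fell in the afternoon and 88 (5.55%) rose in it, and the difference between the steps was called for 1035 (65.2%). Of the 1776 that fell in the night, 275 (15.5%) rose in the afternoon and 83 (4.67%) fell, and the difference was called for 1119 (63%). Over the 14185 probe sets the 2 steps had a Pearson correlation of -0.39 and a Spearman correlation of -0.17, as a description across probe sets, which are not independent.

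**Figure D5:**
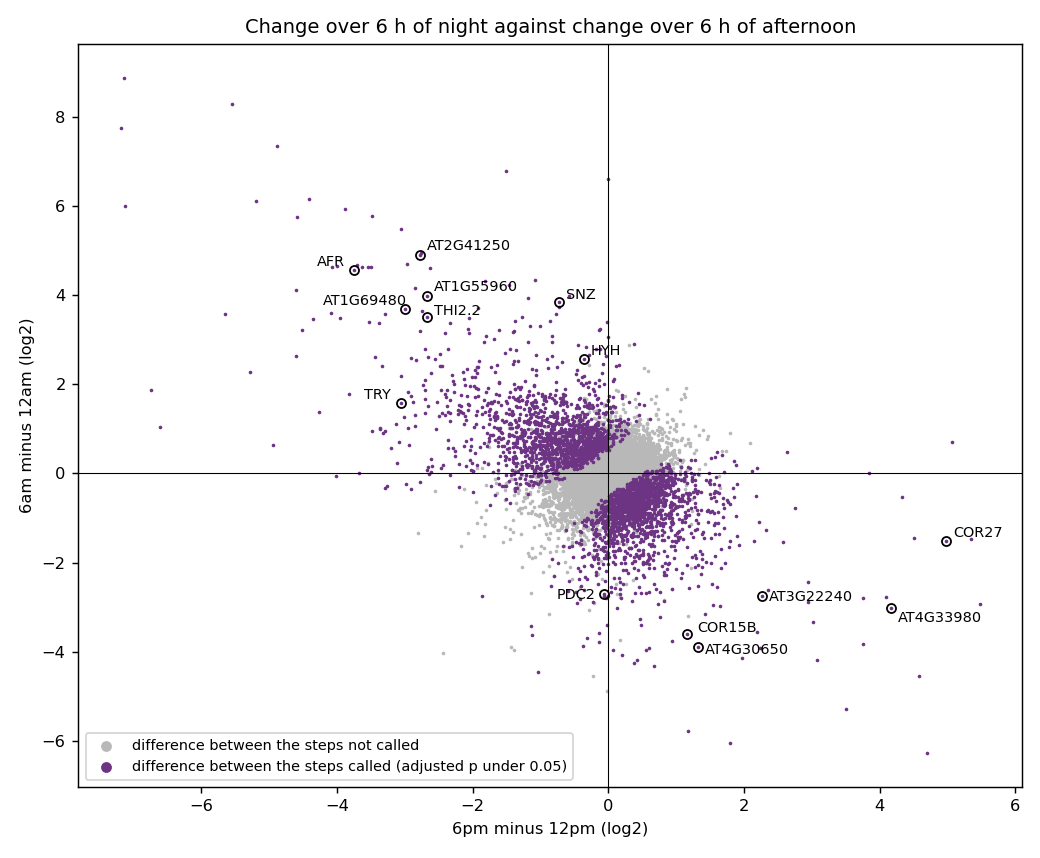
Change through the night (6am minus 12am, log2, vertical axis) against the change through the afternoon (6pm minus 12pm, log2, horizontal axis) for 14185 probe sets. Purple points are the 3141 whose 2 steps differed, grey points are the others and circles mark named genes. AFR and THI2.2 rose in the night and fell in the afternoon, COR27 and AT4G33980 did the opposite, and HYH and PDC2 lie near 0 on the afternoon axis.

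AFR had the largest positive difference between the steps among probe sets that name 1 gene and lie above the minimum at all 4 times. Its night step was 4.55 log2 and its afternoon step -3.75 log2, a difference of 8.30 ± 0.48 SE (adjusted p = 3.04e-07). THI2.2 rose by 3.50 log2 in the night, against -2.68 log2 in the afternoon (difference 6.18 ± 0.42 SE, adjusted p = 1.11e-06). TRY rose by 1.57 log2 in the night, against -3.06 log2 in the afternoon (difference 4.63 ± 0.53 SE, adjusted p = 7.09e-05). These 3 genes thus went back down between 12pm and 6pm. COR27 had a night step of -1.53 log2, against an afternoon step of 4.98 log2 (difference -6.50 ± 0.36 SE, adjusted p = 1.84e-07). AT4G33980 had a night step of -3.03 log2, against an afternoon step of 4.16 log2 (difference -7.19 ± 0.60 SE, adjusted p = 5.57e-06). COR15B had a night step of -3.61 log2, against 1.16 log2 in the afternoon (difference -4.77 ± 0.28 SE, adjusted p = 3.08e-07). PDC2 and Fes1B were called in the night and not in the afternoon, with afternoon steps of -0.07 and 0.07 log2 and differences of -2.64 ± 0.19 SE (adjusted p = 1.67e-06) and -4.04 ± 0.28 SE (adjusted p = 1.18e-06). For DELTA-VPE (adjusted p = 0.506) and DFR (adjusted p = 0.0555) a difference between the 2 steps was not called.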

How the data were processed

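The authors deposited 1 log2 value for each probe set and array. Their processing notes list R 3.1, affy 1.42.3 and GCRMA, and the sources used here do not say which arrays were normalized as one set. GCRMA leaves many dim probe sets at one floor: 29.3% of values lay within 0.1 of the lowest, 2.10. Arrays have no read depth, and their number limits the precision.

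The 64 control probe sets and 8561 that did not reach log2 4 on 3 arrays were left out. The 12 arrays entered 1 model per probe set with the 4 harvest times as groups (limma 3.58.1, R 4.3.3), moderated with eBayes (8 residual and 3.44 prior degrees of freedom) and tested two-sided, with Benjamini-Hochberg adjustment over 14185 probe sets. The threshold was an adjusted p of 0.05. The scripts were tested on simulated data with independent noise on each array and no replicate effect. That test therefore does not cover arrays such as those of replicate 1, which stood apart. Where the lower mean was under 4 it was set to 4, which gives the fold as a lower bound. Each gene was read from its probe set with the highest mean.

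The platform's annotation names 1 gene for 13513 of 22746 probe sets, and these were joined to RefSeq names of the TAIR10.1 assembly for 13436. Another 503 name several genes and 8730 are not listed. No coordinates or sequences are printed, and promoter motifs were not searched here.

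Named genes were the 15 largest called rises and falls whose arrays do not overlap, 6 and 6 by lower bound, up to 3 and 3 per list, small lists in full, and 5 and 5 by the difference between the night and afternoon steps. A further rule, the 30 largest rises and falls among genes with a symbol, and 20 lists drawn from gene names were added after the values were seen, as were 4 unnamed probe sets. List members named beyond these rules were chosen with their values seen. Members, lists and tests were all chosen with earlier results of these data known. A list is described by its counts, not tested. Lists given by locus were matched in part, such as 7 probe sets for 16 cold response loci and 5 for 17 chlorophyll synthesis loci. A share therefore covers the tested members alone.

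The 14 alternatives for each gene changed the arrays in the fit, the filter, the scaling, the variance model or the replicate block, or left out replicate 1 of every time or 1 array of 6am or 12am. Losses named gene by gene are mostly those on leaving out single arrays, and other alternatives lost some calls as well.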

Additional observations from a re-analysis of the deposited data

Results flagged for a closer look

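For 10 probe sets that name 1 gene and lie above the minimum level at all 4 times, the change from 12am to 6am differed from the change from 12pm to 6pm by a test of the difference itself, and these are the 5 largest in each direction among such probe sets, while some without a gene name differed by more, such as 258497_at (11.29 log2) and 249850_at (-10.97 log2). The night step exceeded the afternoon step by 8.30 log2 in AFR, 7.68 in AT2G41250, 6.69 in AT1G69480, 6.65 in AT1G55960 and 6.18 in THI2.2. It was below the afternoon step, with differences of -7.19 log2 in AT4G33980, -6.50 in COR27, -5.22 in AT4G30650, -5.02 in AT3G22240 and -4.77 in COR15B. Over all probe sets the 2 steps differed for 3141. Groups of 3 arrays are too small for the test of single outlying arrays, so none was run. No explanation was tested.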

How the results depend on the processing

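All 3363 calls kept their direction under the alternatives in which they were tested. Replicate numbers were not taken to pair the samples, because the deviations of 6am and 12am arrays from their group means correlated at 0.263, 0.390 and 0.055 for replicates 1, 2 and 3, the last under the minimum of 0.1. Arrays of replicates 1 and 2 correlated best with their own number and those of replicate 3 with replicate 2. Without a block, any shift that arrays of 1 replicate number share counts as spread in the main fit. With the replicate block there were 5111 calls, all 3363 among them, and 2508 were higher. It also brought PYK10 (adjusted p = 0.0132), MCCA (0.0142), MCCB (0.0294) and GTR1 (0.00572) past the threshold. Replicates 2 and 3 alone gave 5111 calls, of which 2532 were higher. Leaving out single arrays gave 2126 to 3817 calls, 964 to 1871 higher and 1162 to 1946 lower, with the lowest numbers without 12am replicate 2 (2126) or 3 (2174). The number of differences between the night and afternoon steps lay between 2453 and 3677 without single arrays. Other filters, scalings and variance models stayed within 1.5 times, and no scaling moved the median of all probe sets beyond 0.01. The fit on the 6 compared arrays alone gave 2403 calls, 2317 of the 3363 among them. That fit lost 46 of the calls of genes reported or listed. Of 198 called genes reported or listed, 132 were called in every alternative in which they were tested, and 330 of 2754 recomputed calls were lost. Another 299 were not called, and 166 of 4134 recomputed values passed the threshold. Under replicates 2 and 3 alone psbH (0.57) and UGT76B1 (-0.94) changed sign and were called, and UGT76B1 also did without 12am replicate 1 (-0.83), against 0.82 without 12am replicate 3. The cause was not tested.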
